A study of Homo sapiens with 6 samples.

Results

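The 7 genes described here, of secreted peptides, their storage granules and their receptors, were read in a comparison of imatinib-resistant and imatinib-sensitive leukaemia cells. They are SCG3 and PCSK1N (granule proteins), NMU and IGF1 (ligands), and GRPR, GLP1R and IL1R1 (receptors). They were chosen by name from the 674 genes that the authors deposited as shared by both of their comparisons. Each of the 7 therefore has an entry by choice. The cells were K562, an established human chronic myeloid leukaemia line driven by the BCR-ABL1 fusion kinase. The groups were the resistant lines IR1 and IR2, both kept continuously in the ABL kinase inhibitor imatinib, and the sensitive parent WT, with 2 libraries each (6 in all). The sources used here do not give the drug dose or say whether a resistant line is 1 clone, and resistance and drug exposure cannot be told apart in this design.

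Peptide hormones and neuropeptides are made as precursors, cut by convertases and stored in dense-core granules, which granins help to form. Once released they act on receptors of other cells or of the same cell, many of them coupled to G proteins. Growth factors such as IGF1 and cytokines of the interleukin 1 family act through single-pass receptors instead. Blood cells are not classical peptide-secreting cells, although growth factor and cytokine signalling is central to them.

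The values are log2 fold changes in 2 columns. The header does not tie a column to IR1 or IR2 and does not name the numerator, so they are called the first and the second column, and genes positive or negative by sign. The WT libraries serve in both comparisons. No level, count, error or p-value was used here, so depth is unknown, no fold can be set against the spread between libraries, and the labelled cell type could not be checked by marker levels. Every gene of the authors' deposited table lies beyond 1.5 in size in both columns (a fold of 2.83), and the 7 genes were chosen with these values known. The folds are therefore descriptions without a test.

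Of the 7 genes, 4 were negative in both columns (SCG3, NMU, IGF1 and IL1R1) and 3 were positive in both (GRPR, GLP1R and PCSK1N). Over the table, 25.7% of genes were negative and 74.3% positive in the authors' deposited table. Both ligands were negative, both G protein-coupled receptors were positive, and the granule proteins were split. The median size of the 7 log2 fold changes was 2.80 (first column) and 3.47 (second column), against 2.28 and 2.89 over all genes in the authors' deposited table. A size of at least 2 in both columns was reached by 4 of the 7, SCG3, IGF1, GRPR and IL1R1, where the share over the table was 58.9%. Since the genes were picked from the table, nothing is read from these shares.

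**Figure D1:**
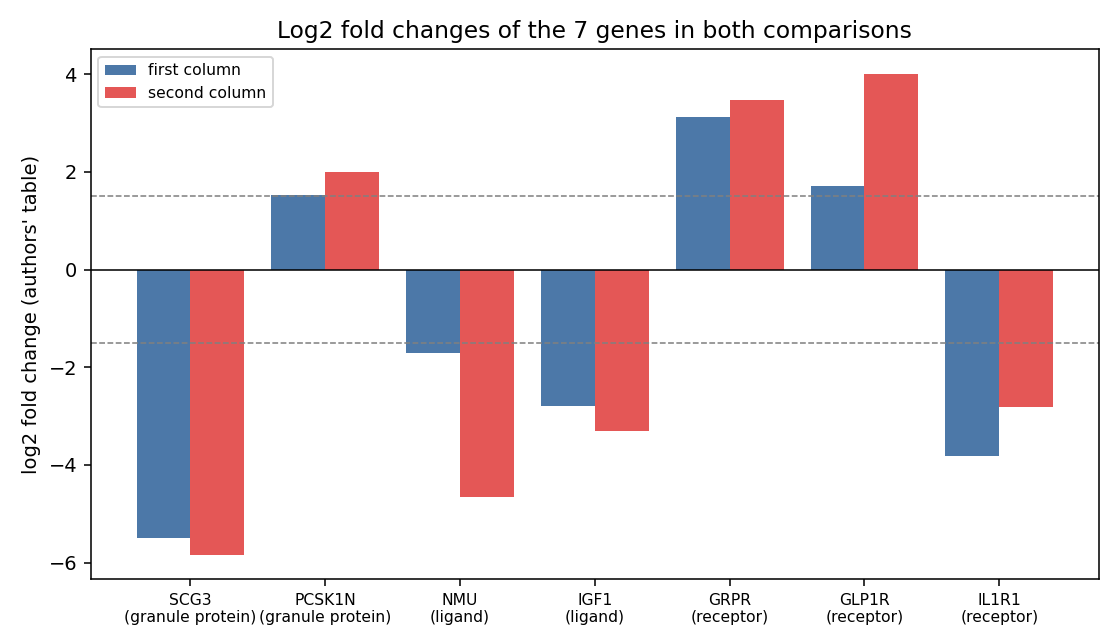
Log2 fold changes (vertical axis) of the 7 genes in the first (blue) and second (red) column of the authors' deposited table; dashed lines mark 1.5 in either direction, which every gene of the table passes. SCG3 has the longest bars, -5.50 and -5.85, and NMU and GLP1R the most unequal pairs.

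SCG3 (ENSG00000104112, chromosome 15) encodes secretogranin III, a granin that binds chromogranin A and cholesterol-rich membrane in forming granules. On the log2 scale of the authors' deposited table it read -5.50 (first column) and -5.85 (second column). These are folds of 45.4 and 57.5 in size, which rank 6 and 9 among all 674 genes. Among negative genes it ranked 2 and 4. Both comparisons put the gene at the same extreme, with a ratio between the 2 folds of 1.27.

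Its start holds the left and right parts of RE1, the element through which the repressor REST silences neuronal and neuroendocrine genes, and is shown for that reason. The sequences are RefSeq's for the build GRCh38.p14, whose promoter table covers all 7 genes with 11 windows, each from 250 bases before to 50 after a start. The first line gives the 250 bases before the start of SCG3 (chr15:51681253-51681502, plus strand). The second gives the 26 bases that hold both parts (chr15:51681511-51681536, plus strand), bases 9 to 34 from the start, with the parts in capitals and 8 bases between them.
SCG3 upstream: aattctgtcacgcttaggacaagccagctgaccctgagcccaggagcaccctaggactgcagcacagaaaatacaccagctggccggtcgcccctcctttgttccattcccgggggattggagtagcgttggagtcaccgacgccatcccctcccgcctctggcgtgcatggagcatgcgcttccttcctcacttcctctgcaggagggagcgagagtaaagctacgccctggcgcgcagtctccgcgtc
SCG3 RE1 parts: TTCAGCACCcacagggcGGACAGCGC

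The left part (TTCAGCACC) was found in 0.376% and the right part (GGACAGCGC) in 0.581% of all 35116 windows, on either strand. Both parts in order on a single strand, at any spacing, were found in 5 windows (0.0142%), those of SCG3, GRIA2, LHX3, TPH2 and UNC13A. The count is therefore not one of whole RE1 elements. SCG3 is the only one of these genes in the authors' deposited table. No other of the 7 genes had either part in its windows. The motif was looked for after the SCG3 sequence had been read, a match of letters is no evidence of binding, and the spacing of the parts was not compared with bound sites. REST itself was not among the listed genes.

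PCSK1N (ENSG00000102109, chromosome X) encodes proSAAS, a granin-like precursor whose peptides inhibit prohormone convertase 1. Its values of 1.52 and 2.00 on the log2 scale of the authors' deposited table were the smallest of the 7 in each column, and the first is a fold of 2.88. In the first column it ranked 658 of 674 by size, close to the table's lowest value of 1.503. The granule proteins thus stood at opposite signs and near opposite ends of the range of sizes.

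NMU (ENSG00000109255, chromosome 4) encodes neuromedin U, a neuropeptide that contracts smooth muscle and acts on feeding and on immune cells through G protein-coupled receptors. The authors' deposited table had -1.71 and -4.66 for it on the log2 scale, a 3.28-fold and a 25.3-fold difference. The gene ranked 555 of 674 by size in the first column, and 73 by the second. The fold in the second column was 7.71 times that in the first, the seventh widest gap in that direction among all genes.

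IGF1 (ENSG00000017427, chromosome 12) encodes insulin-like growth factor 1, a survival and growth signal that works through the receptor kinase IGF1R. Its readings on the log2 scale of the authors' deposited table were -2.80 and -3.30, or folds of 6.98 and 9.87. The comparisons gave similar values for it, with a ratio of 1.42. By size it ranked 198 and 244.

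GRPR (ENSG00000126010, chromosome X) is the receptor of gastrin-releasing peptide, the mammalian relative of bombesin, and signals through Gq. It read 3.12 and 3.47 on the log2 scale of the authors' deposited table, or 8.71-fold and 11.1-fold. It ranked 101 and 168 among the positive genes, and its folds differed by a ratio of 1.27 between columns.

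GLP1R (ENSG00000112164, chromosome 6) is the receptor of glucagon-like peptide 1, known for raising insulin release from pancreatic beta cells through cyclic AMP. With 1.71 and 4.01 on the log2 scale of the authors' deposited table it showed a 3.28-fold and a 16.2-fold difference. In size the first-column fold almost equalled that of NMU, and as for NMU the second was far wider, here by a ratio of 4.93. The sign was the opposite one. Its gap ranked 29 of 674.

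IL1R1 (ENSG00000115594, chromosome 2) is the signalling receptor of interleukin 1 alpha and beta, which activates NF-kB through MYD88. Its -3.81 and -2.80 on the log2 scale of the authors' deposited table are folds of 14.1 and 6.99 in size. It alone among the 7 genes had the wider fold in the first column (23.3% of the table had), where it ranked 20 of the negative genes, against 84 in the second.

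The other 6 genes had the wider fold in the second column, as had 76.7% of all genes in the table, so that count is near the background. For NMU and GLP1R the fold in the second column was over 2 times that in the first, as it was for 24.9% of the table. For IL1R1 the first exceeded the second by over 2 times, just past the limit with a difference of -1.01 on the log2 scale. Only 13 genes (1.93%) of the authors' deposited table had one. A size of at least 4 (16-fold) was reached in the first column by SCG3 alone (7.57% of the table) and in the second by SCG3, NMU and GLP1R (22.0%). The differences between columns have no error and were not tested.

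**Figure D2:**
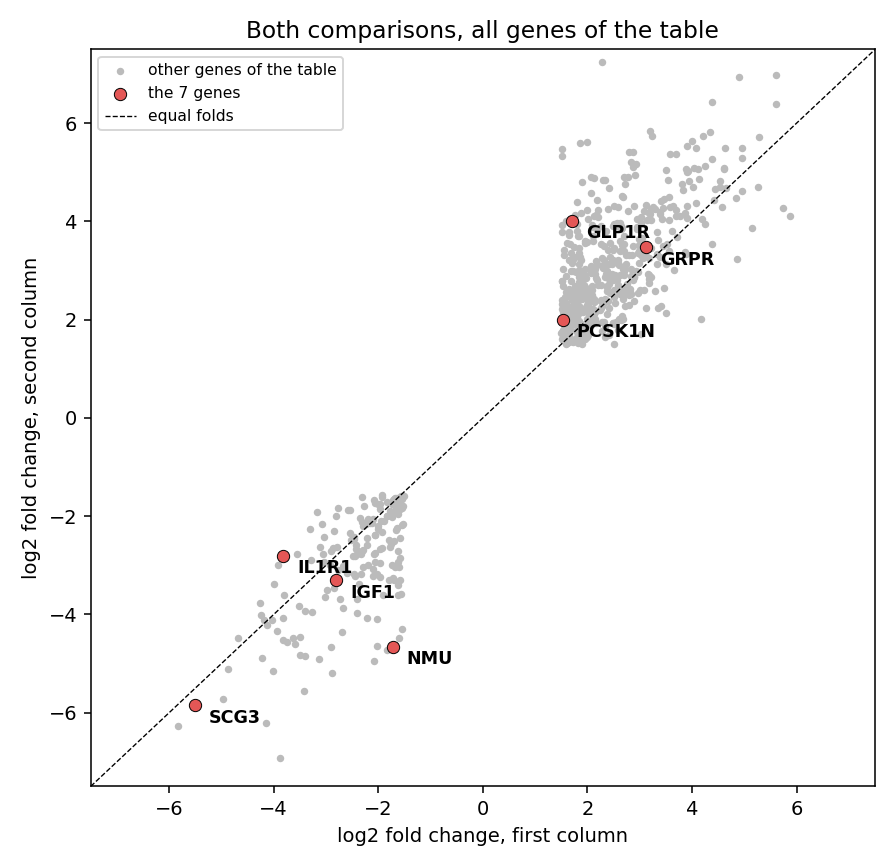
Log2 fold change in the first (horizontal) and second (vertical) column for all 674 genes of the authors' deposited table, with the 7 genes in red and a dashed line of equal folds. NMU lies far below the line and GLP1R far above it, both with the wider fold in the second column. IL1R1 lies above the line, with the wider fold in the first column. The empty centre is where genes under 1.5 would be.

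The promoter sequences of the 3 genes whose columns differ by over 2-fold are given next, each as the 250 bases before a start. NMU is at chr4:55636794-55637043 (minus strand) and GLP1R at chr6:39048531-39048780 (plus strand). IL1R1 has 4 windows, of which the one at chr2:102142056-102142305 (plus strand) is shown because it holds most of the motif matches. Capitals mark matches to the motifs described after the sequences.
NMU upstream: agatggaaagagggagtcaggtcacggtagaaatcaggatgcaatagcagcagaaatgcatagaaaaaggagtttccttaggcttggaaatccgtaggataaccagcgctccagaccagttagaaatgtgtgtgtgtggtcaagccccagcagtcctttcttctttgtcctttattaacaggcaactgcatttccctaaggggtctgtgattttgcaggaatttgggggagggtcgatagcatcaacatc
GLP1R upstream: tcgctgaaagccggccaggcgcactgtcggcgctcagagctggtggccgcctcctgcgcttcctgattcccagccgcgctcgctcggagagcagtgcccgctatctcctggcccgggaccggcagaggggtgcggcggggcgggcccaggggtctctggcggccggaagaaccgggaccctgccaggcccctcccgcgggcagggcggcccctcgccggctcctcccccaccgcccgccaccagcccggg
IL1R1 upstream: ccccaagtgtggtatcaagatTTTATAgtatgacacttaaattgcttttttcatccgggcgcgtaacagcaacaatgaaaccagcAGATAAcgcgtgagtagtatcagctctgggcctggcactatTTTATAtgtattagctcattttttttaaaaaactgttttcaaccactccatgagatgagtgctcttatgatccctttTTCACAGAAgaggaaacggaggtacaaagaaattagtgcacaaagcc

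NMU and GLP1R, which share the wide gap between columns, had unlike base composition. The 300-base window of GLP1R held 75.3% G and C, more than or equal to 91.7% of all windows, and that of NMU 47.3%, more than or equal to 25.9%. The median over all windows was 58.7%. The searched motifs were the GATA motif (AGATAA or TGATAA), the cyclic AMP response element (TGACGTCA), the STAT motif (TTCNNNGAA) and the TATA box (TATAAA), each on both strands. The windows of SCG3, PCSK1N, NMU, IGF1, GRPR and GLP1R held none of them. IL1R1 had a GATA match in 2 of its windows (16.3% of all windows hold one), and a STAT match (7.66%) and TATA matches (11.5%) in the window shown. The TATA matches, at -229 and -124 from the start, read TTTATA, which is the motif on the opposite strand. They are matches of letters and are not read as a working TATA box. IL1R1 has 4 of the 11 windows. Over the 11, GATA was held by 2, STAT by 1 and TATA by 1. The cyclic AMP response element, held by 1.85% of all windows, was in none of the 11.

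The rest of each signalling system was read from gene lists. None of the 26 genes taken as direct partners was among the listed genes. They were the NMU receptors NMUR1 and NMUR2, the GRPR ligands GRP and NMB, and GCG, DPP4, GIPR and GCGR around GLP1R. For IGF1 they were IGF1R, INSR, IGF2R, IGFBP3, IRS1 and IRS2, and for IL1R1 they were IL1A, IL1B, IL1RN, IL1RAP, IL1R2, MYD88 and IRAK4. For the granule proteins they were CHGA, SCG2, CPE, PCSK1 and PCSK2. A gene outside the table may be unchanged, changed in a single comparison, below the authors' limits or not expressed, and these cannot be told apart here. How many of any 26 genes would be listed was not worked out. The absence of the partners is therefore not read as a result about these systems.

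The counts per list, here and below, were not set against the share of all protein-coding genes that are listed. The authors' deposited table holds 480 protein-coding genes, so any long list may hold some. No count is therefore read as few or many for its list. Of 89 neuropeptide and peptide hormone genes, NMU was the only one listed, and of 93 peptide receptors coupled to G proteins, GRPR and GLP1R were. The receptor list was not complete. It left out CMKLR1, the receptor of chemerin, which was negative with -2.34 and -2.77 in the authors' deposited table. Of 38 genes of the interleukin 1 system, IL1R1 alone was listed. The granule list of 33 genes added RAB27B, a small GTPase of granule release, with 3.71 and 3.69 on the log2 scale of the authors' deposited table. Of 24 genes of the insulin-like growth factor axis, the other listed one was PAPPA, the protease that frees IGF from its binding proteins, for which the authors' deposited table had 2.24 and 2.19. IGF1 and PAPPA thus had opposite signs in both columns.

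Among 27 convertases and peptide-processing enzymes, 3 were listed, 2 positive and 1 negative. The carboxypeptidase CPZ read -4.88 and -5.11 on the log2 scale of the authors' deposited table. The angiotensin-converting enzyme ACE read 2.53 and 2.34, and the endothelin-converting enzyme ECE1 read 1.56 and 1.83, on the log2 scale of the authors' deposited table. Of 25 neuroendocrine cell markers only GAP43, a protein of nerve growth cones, was listed, and the authors' deposited table had 1.82 and 2.43 for it. This marker list held none of the 7 genes. The negative SCG3 was counted in the granule list instead, so the sign of GAP43 does not stand for neuroendocrine genes. The classical markers CHGA, SYP and INSM1 were not among the listed genes. Of 18 erythroid and megakaryocyte markers of K562 cells, 5 were listed, 1 positive and 4 negative, the largest being ITGA2B, with 3.46 and 4.45 on the log2 scale of the authors' deposited table. Their part in the values of the 7 genes was not tested.

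**Figure D3:**
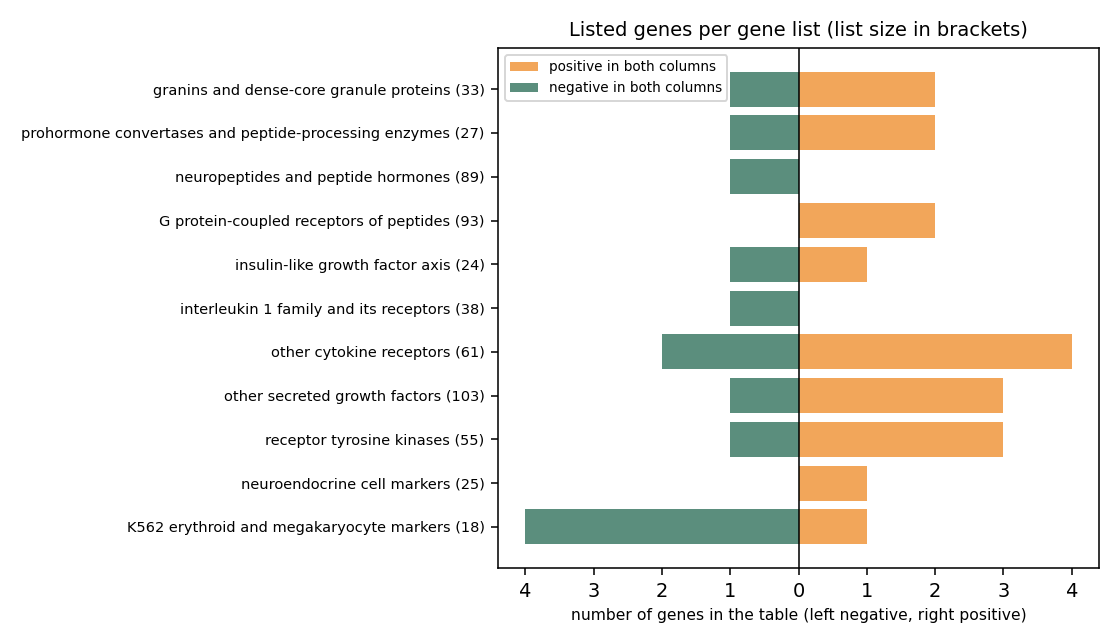
Number of genes of each list that are in the authors' deposited table, positive in both columns to the right and negative in both to the left, with the list size in brackets. The neuropeptide and peptide hormone list has 1 listed gene of 89, NMU, and the peptide receptor list has 2 of 93, GRPR and GLP1R. The counts were not set against the share of all protein-coding genes that are listed.

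Position along the chromosomes was read from GENCODE 29, as gene order only. LYSMD2, the protein-coding gene next to SCG3, was listed too, with -3.81 and -4.06 on the log2 scale of the authors' deposited table. On the other side of SCG3 the nearest listed gene was an antisense RNA (ENSG00000259668) that read -1.60 and -3.03 in the authors' deposited table, with 0 protein-coding genes starting between. Negative values were not limited to these nearest neighbours. From the same region of chromosome 15, DMXL2 read -2.87 and -2.66, and TMOD2 read -4.23 and -4.88, on the log2 scale of the authors' deposited table. Of the 24 listed genes on chromosome 15, 8 were negative. Whether SCG3 shares its fold with its region was not tested. GRPR overlaps the antisense RNA ENSG00000238178, which read 2.97 and 3.36 on the log2 scale of the authors' deposited table. The sources used here do not give the strand setting of the counting, so reads of GRPR and of this RNA may not have been told apart. SCG3, IGF1 and IL1R1 also overlap annotated genes of the other strand, none of them listed.

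IL1R1 lies in a cluster of interleukin 1 receptor genes. The next listed gene after it was the sodium-proton exchanger SLC9A2, which read -2.29 and -3.04 in the authors' deposited table, and the genes between, IL1RL2, IL1RL1, IL18R1, IL18RAP and SLC9A4, were not listed. NMU was preceded by the receptor kinase gene KIT, with KDR, SRD5A3, TMEM165, CLOCK and PDCL2 unlisted between them. KIT read -3.17 and -1.91 on the log2 scale of the authors' deposited table, so that its wider fold was in the first column where that of NMU was in the second. The nearest listed genes on the other sides had the opposite sign. They were the pseudogene ENSG00000231331 before IL1R1 (1.94 and 2.71) and FRAS1 after NMU (2.62 and 3.40), both in the authors' deposited table. For PCSK1N the nearest listed gene was WAS, for which the authors' deposited table had 2.59 and 2.61, with 5 protein-coding genes between, GATA1 among them and unlisted.

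GLP1R lay between PIM1, a kinase gene and STAT5 target (-1.78 and -2.63), and MOCS1, of molybdenum cofactor synthesis (1.83 and 3.13), both on the log2 scale of the authors' deposited table. IGF1 was far in gene order from listed genes on either side, with 73 and 14 protein-coding genes between. In the authors' deposited table the gene before it, LINC02820, was negative (-1.69 and -3.02), and the gene after it, SLC41A2, was positive (2.69 and 2.92). Of the 14 pairs of a gene and its nearest listed neighbours, 10 had the same sign (71.4%), against 456 of 633 adjacent pairs over the whole table (72.0%). Of the 3 pairs with no protein-coding gene between, 3 had the same sign, against 130 of 133 over the table (97.7%). These shares are close to the background. They count pairs of nearest listed genes only, so they do not describe longer runs of like sign, such as the negative genes around SCG3.

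**Figure D4:**
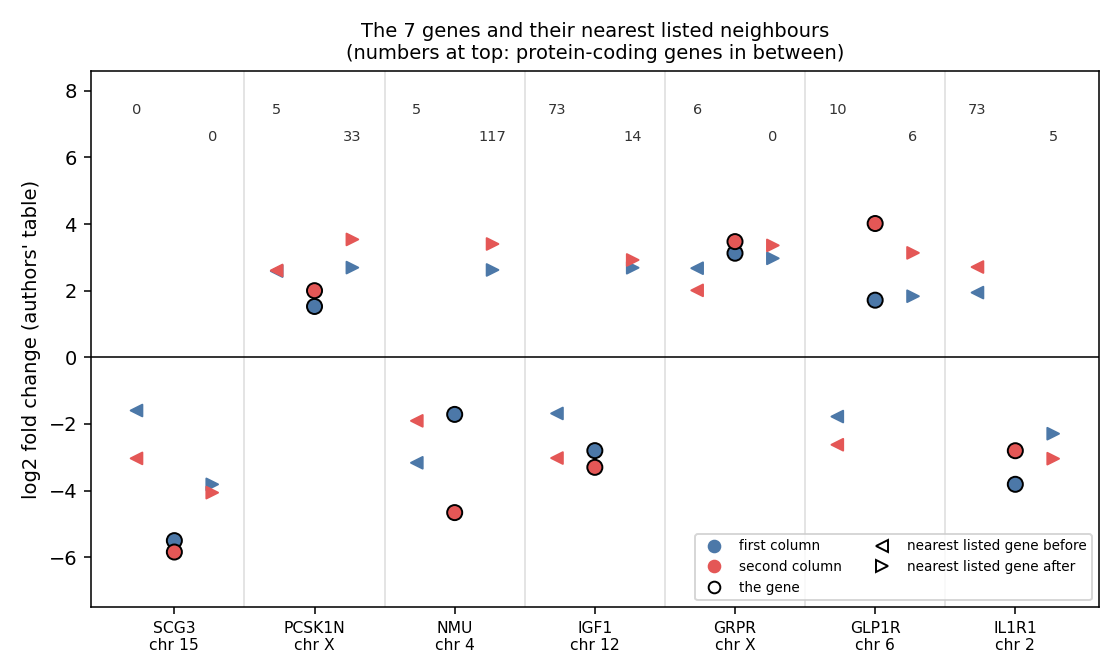
Log2 fold changes of the 7 genes (circles) and of the nearest listed gene before (left-pointing) and after (right-pointing) each on its chromosome, in the first (blue) and second (red) column; numbers at the top count the protein-coding genes in between. SCG3 and both of its neighbours are negative, and GRPR and PCSK1N are positive, as are both neighbours of each.

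The listed protein-coding genes most like each of the 7, among those with a symbol in the gene name table, were found by Euclidean distance over both columns of the authors' deposited table, on the log2 scale. Nearest to SCG3 were the thyroid hormone receptor THRB at a distance of 0.543, the carboxypeptidase CPZ at 0.961 and the glycogenin GYG2 at 1.41. NMU was nearest to the heparan sulfate sulfotransferase HS3ST3B1 (0.319), the apolipoprotein APOL4 (0.399) and the synaptotagmin SYT10 (0.773). The smallest distances of SCG3 and NMU were the widest among the 7 genes. GLP1R was nearest to ZNF331 (0.238), to DCT (0.245), an enzyme of melanin synthesis, and to the collagen gene COL5A1 (0.296). IL1R1 was nearest to the acetyl-CoA synthetase ACSS1 (0.210), TMEM273 (0.257) and the orphan receptor ESRRB (0.523). For IGF1 the nearest were the calcium-binding protein CALB1 (0.215) and the transcription factors TBX1 (0.251) and MNX1 (0.265). PCSK1N was nearest to ZNF718 (0.0118), THSD7A (0.0340) and ZFP28 (0.0411), and GRPR to DENND2B (0.0133), FAM111A (0.0978) and ZNF605 (0.123). Likeness over 2 comparisons with shared WT libraries says nothing of shared control.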

How the data were processed

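RNA sequencing was done by the submitters on 6 K562 libraries. The tools named per the submitters' processing notes are DESeq2 3.5, HISAT2 2.1.0, Subread and featureCounts, with the build hg19. The sources used here do not give the role and settings of each, the authors' selection limits or the strand setting. The deposited table holds the authors' log2 fold changes, in 2 columns, for 674 genes. Computed here, with pandas 2.3.3 and numpy 2.4.6, were ranks, medians, counts by sign, distances and neighbours; no test was made.

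Symbols came from a gene name table (654 of 674 identifiers matched), and gene type and order from GENCODE 29 on GRCh38 (657 matched), not the authors' build. Promoters came from RefSeq by symbol.

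The genes, the 11 lists and the rules were chosen with earlier results of these data known. Named were the 7 genes, up to 4 listed genes per list by mean fold, the 3 nearest protein-coding genes with a symbol and the nearest listed neighbours. The counting was checked on simulated data. Alternatives were a minimum size of 2, protein-coding genes only and GENCODE symbols. Nothing says that the 2 libraries of a group came from separate cultures.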

Additional observations from a re-analysis of the deposited data

How the results depend on the processing

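With protein-coding genes only, or with symbols from GENCODE 29, the counts and medians of the 7 genes and the number of listed genes over all lists (32) were the same as reported. With a size of at least 2 in both columns 4 of the 7 genes were left. Of these, 3 were negative (101 of the 397 genes left in the table) and 3 had the wider fold in the second column (300 of the 397). The medians were 3.47 (first column) and 3.39 (second column), against 2.79 and 3.36 over the 397 genes left. In the second column the medians were thus close. Of the list genes 17 were left, and these values moved because fewer genes passed. No paired analysis was possible because the table holds no values per library, and for the same reason no library could be left out. Depth is unknown, so its limit on any fold cannot be given.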

Other observations

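Beyond the 7 genes and their direct systems, other receptors and growth factors were listed, with values on the log2 scale of the authors' deposited table. Of 61 other cytokine receptors 6 were listed, 4 positive and 2 negative. IL10RA, the receptor of interleukin 10, read -4.27 and -3.76 in the authors' deposited table, with the wider fold in the first column, as for IL1R1. TGFBR3, a co-receptor of transforming growth factor beta, had -2.42 and -2.66 in the authors' deposited table. ACVR1C, a receptor of the activin family (2.06 and 2.95), and CSF2RB, the shared chain of the GM-CSF, interleukin 3 and interleukin 5 receptors (1.69 and 2.99), had positive values in the authors' deposited table.

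Of 103 other secreted growth factors 4 were listed. FGF2, basic fibroblast growth factor, was negative like IGF1, with -2.40 and -3.97 in the authors' deposited table. EGF (2.11 and 2.22), the inhibin subunit gene INHBE (2.09 and 3.03) and FGF14 (1.96 and 3.02), which belongs to the FGF family but acts inside cells on sodium channels, had positive values in the authors' deposited table. Of 55 receptor tyrosine kinases 4 were listed, 3 positive and 1 negative. EPHB6, an Eph receptor without kinase activity, had 3.51 and 5.05 in the authors' deposited table. KIT is given above. MERTK read 1.74 and 1.56 on the log2 scale of the authors' deposited table, and DDR2 read 1.60 and 2.30. No error is known for any of these folds, and none was tested.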
